A study of Mus musculus with 8 samples.

Results

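Necroptosis, pyroptosis and the inflammatory caspases were followed through 10 genes in mouse fibrosarcoma cell lines: Ripk1, Ripk3, Mlkl, Casp8, Casp1, Casp4, Casp12, Gsdmd, Cflar and Fadd. They were picked by name, as rows of the deposited count table, and all 10 were present among its 18768 genes. RNA was sequenced from 4 lines with 2 libraries each. The label IRF8 KO is on MC010 and MC011, which grew out of tumors of IRF8 knock-out mice, in which every cell of the animal carries the targeted allele. The label WT is on MC654 and MC659, from tumors of wild-type C57BL/6 mice. In all 4, the tumor had been induced by methylcholanthrene, a chemical carcinogen given under the skin, and the tumor cells were then passaged in culture until a stable line was obtained. No treatment of the cultured cells is given. The ages of the mice are not given in the sources used here. Each line stands for a single tumor, so that 4 libraries face 4 but only 2 lines face 2. Nothing in the labels says that the 2 libraries of a line came from separate cultures. P-values from fits with one group per line then measure the spread between these libraries, which may be technical. The main tests between the labels count the 2 libraries of a line as independent. Their spread mixes differences between tumors with differences between libraries of a line.

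Necroptosis is a lytic form of cell death in which the kinase RIPK1 engages RIPK3, which phosphorylates the pseudokinase MLKL so that MLKL opens the plasma membrane. The protease encoded by Casp8, recruited by the adaptor FADD, cleaves the RIP kinases and holds this pathway back, and the Cflar product c-FLIP, a protease-dead relative, sets how active it is. Pyroptosis is lytic as well. Inflammatory caspases cleave gasdermin D, the Gsdmd product, whose released part forms pores in the membrane. Interferons are known to induce several of these genes, among them Mlkl, Zbp1, Casp1 and Casp4, and tumor cells often silence Ripk3. How much of each component a tumor cell holds bears on which death it can undergo when a cytotoxic T lymphocyte or a drug engages it, and the study from which these libraries come was about a different one, ferroptosis, in which iron-dependent oxidation of lipids kills the cell.

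Libraries held 74063616 to 116206078 counts. Irf8, the targeted gene, was counted 442 and 347 times in MC010, 32 and 10 times in MC011, 1 and 2 times in MC654, and 1 time and 0 times in MC659. Its RNA was thus higher where the label says knock-out, and every direction below refers to the label and not to measured Irf8. All WT counts of Irf8 were under a floor of 3 counts, and it passed the filter on low counts only through the libraries labelled IRF8 KO. Its counts are therefore a description and not a test of the label. The counts cover the whole gene, so which exons the reads came from was not tested. All 8 mesenchymal markers were in the table, and their summed level in CPM (counts brought to a common library size by TMM scaling) was 9509 to 10451 in the libraries labelled IRF8 KO and 14401 to 16146 in those labelled WT. Vim, which encodes the filament vimentin, had 4532 to 7384 CPM in the 8 libraries. Fn1, which encodes the matrix protein fibronectin, was lower with the label IRF8 KO (-2.33 on the log2 scale, adjusted p = 0.000159, edgeR). Its mean was 1587 CPM with that label and 7973 CPM with the label WT. S100a4 (2.17, adjusted p = 0.00180, edgeR) and Thy1 (1.93, 0.0417) were higher with the label IRF8 KO. For Thy1 the labels overlapped, and the difference lay in MC011. It had 72.3 and 68.1 CPM there and 12.8 and 11.9 in MC010, against 8.68 to 12.7 in the WT libraries. Fn1, S100a4 and Thy1, 3 of the 8 markers or 37.5%, were past the thresholds given below, as were 22.5% of all genes tested. The median log2 difference of the 8 was 0.19, so they did not move together. Of 10 hematopoietic markers 5 were in the table, and their summed level was 22.9 to 23.6 CPM in MC010, 17.0 to 18.1 in MC011 and 16.4 to 16.6 in the WT lines. The summed level of 4 endothelial markers stayed between 0.465 and 0.912 CPM.

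The first comparison asked whether the 10 genes differ between the lines labelled IRF8 KO and those labelled WT. Casp4 and Gsdmd were higher with the label IRF8 KO, Casp4 by 11.3-fold and Gsdmd by 7.28-fold. Cflar was 1.45-fold higher at an adjusted p below 0.05, the threshold that 37.5% of all genes tested met, and the other 6 tested genes did not meet it. Casp1 was seen in MC010 and, apart from a single count in MC011, nowhere else, and was too low in the rest to be tested with the others. Counts were compared with edgeR's quasi-likelihood test, and a gene was called when its Benjamini-Hochberg adjusted p over all 15153 genes tested was below 0.05 and its log2 difference exceeded 0.59 either way, thresholds the study used. By that rule 2 of 9 tested genes, or 22.2%, were called, all higher, and over all genes tested 22.5% were called, 13.7% higher and 8.72% lower. The share among the 10 genes is therefore close to that of the whole table. All 9 log2 differences lay above 0, with a median of 0.53 against 0.02 over all genes tested, but those of Ripk1 and Fadd turned negative without MC011 and those of Mlkl and Casp8 without MC010. In such bulk RNA, a lower level may reflect fewer cells that express a gene or less RNA per cell, and these cannot be told apart.

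**Figure D1:**
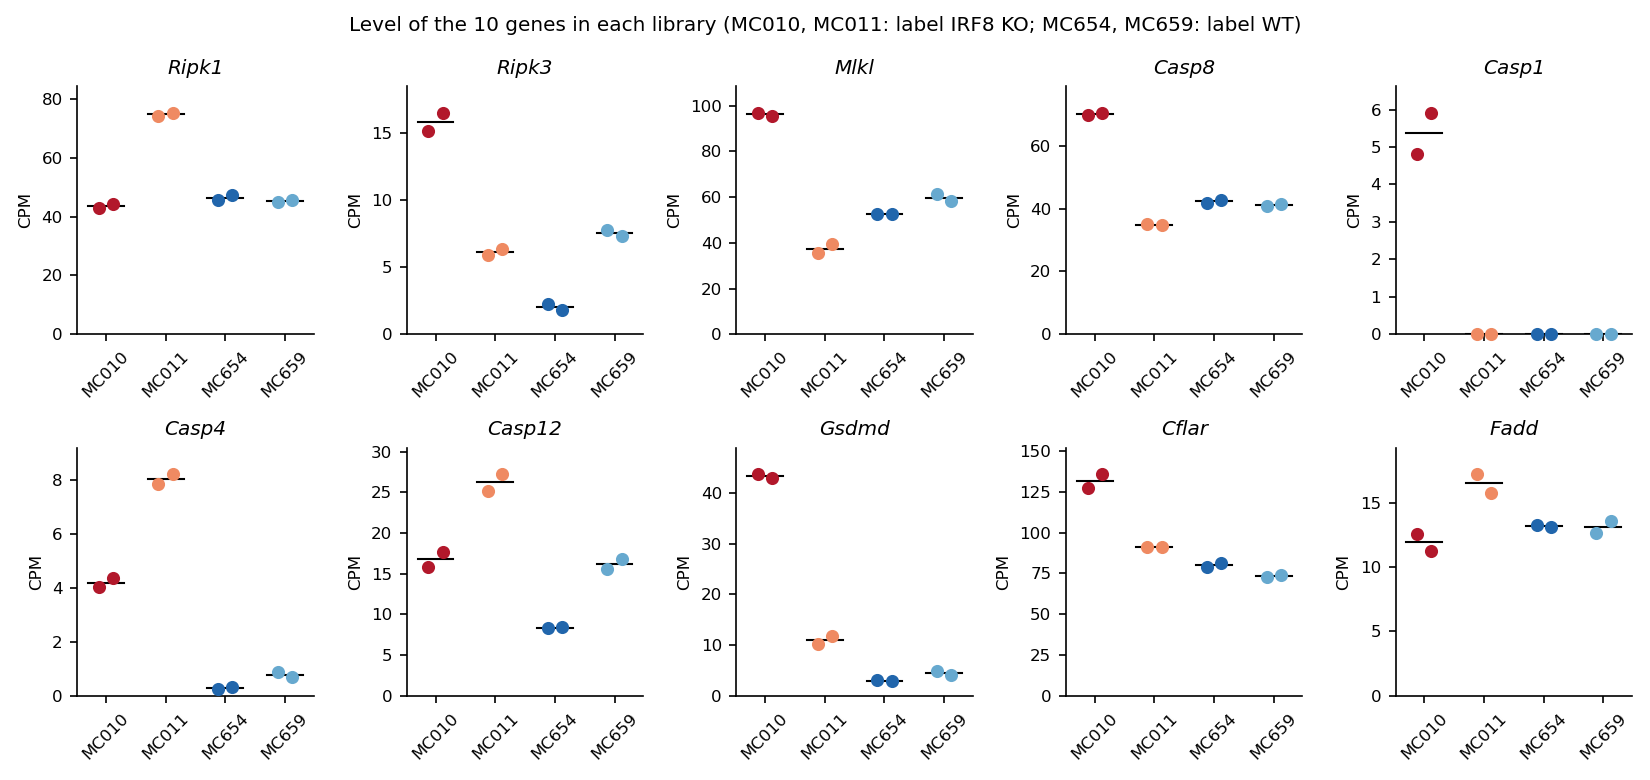
Level of each of the 10 genes in CPM (vertical axes, each starting at 0) in the 8 libraries, with a point per library and a horizontal bar at the mean of each line. The points of one line lie close together while lines of the same label are often far apart, as for Gsdmd, which averaged 43.3 CPM in MC010 and lay between 10.3 and 11.7 CPM in MC011, and Casp1 stands above 0 in MC010 alone at this scale.

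The necroptosis kinases were taken first. Ripk1 (ENSMUSG00000021408, chromosome 13 of mm10, 34002363 to 34037147), the kinase at which survival and death signals of the TNF receptor part, had 43.0 and 44.2 CPM in MC010, 74.1 and 75.4 in MC011, 45.5 and 47.3 in MC654, and 45.04 and 45.5 in MC659. MC011 stood above the other lines, which were level with each other, so the labels overlapped. The label difference was 0.37 on the log2 scale (standard error 0.20, adjusted p = 0.182, edgeR). It was 0.69 and called without MC010 (adjusted p = 1.65e-06), and -0.0801 without MC011 (adjusted p = 0.210). In a fit with one group per line, MC011 exceeded the mean of the WT lines by 0.71 (standard error 0.04, adjusted p = 1.16e-09), while MC010 differed from it by -0.07 (standard error 0.05, adjusted p = 0.170). Ripk1 shares 241 exon bases with Serpinb6a on the opposite strand, which had 17883 to 56637 counts per library, and contains a pseudogene, Gm17084, on its own strand. The libraries are labelled stranded, but whether strand was used in counting, and how reads over shared bases were treated, is not stated. Whether these neighbours add to or take from the Ripk1 counts is therefore not known.

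Ripk3 (ENSMUSG00000022221, chromosome 14, 55784995 to 55788865), the kinase that commits a cell to necroptosis, had 15.1 and 16.5 CPM in MC010, 5.92 and 6.34 in MC011, 2.22 and 1.78 in MC654, and 7.75 and 7.28 in MC659. MC010 was highest, MC654 lowest, and MC011 lay between the WT lines. The label difference of 1.20 (standard error 0.59) did not pass the test (adjusted p = 0.144, edgeR), except with MC659 left out, where it was 2.45 (adjusted p = 0.0435). Against the mean of the WT lines, the log2 difference was 2.03 (standard error 0.09, adjusted p = 2.64e-11) for MC010 and 0.66 (standard error 0.10, adjusted p = 3.96e-05) for MC011. The WT lines themselves were 1.91 apart (standard error 0.13, adjusted p = 9.17e-08), with MC654 the lower, a step larger than that of MC011 from their mean. MC011 lay 0.29 below MC659 (standard error 0.11, adjusted p = 0.0350) and 1.62 above MC654 (standard error 0.13, adjusted p = 3.13e-08), so its difference from the mean of the WT lines rests on MC654.

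Mlkl (ENSMUSG00000012519, chromosome 8, 111311797 to 111338177), the executioner of necroptosis, had 97.0 and 95.6 CPM in MC010, 35.7 and 39.3 in MC011, 52.5 and 52.5 in MC654, and 61.3 and 58.2 in MC659. The WT lines thus lay between MC010 and MC011. MC010 was 0.78 above the WT mean on the log2 scale (standard error 0.05, adjusted p = 6.06e-10), and MC011 was 0.58 below it (-0.58, standard error 0.05, adjusted p = 7.15e-08, short of the fold threshold). Pooled by label, the difference was 0.25 (standard error 0.34, adjusted p = 0.595, edgeR). With MC010 left out, Mlkl was called lower with the label IRF8 KO (-0.60, adjusted p = 0.000105), and with MC011 left out it was called higher (0.77, adjusted p = 8.73e-06). Lengths allow levels of different genes to be compared. Per kilobase of exon, Mlkl had the highest level of the 10 genes in each of the 4 lines, with 41.8, 16.3, 22.8 and 25.9 CPM per kilobase in MC010, MC011, MC654 and MC659, and Ripk3 had 6.89, 2.68, 0.871 and 3.28.

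The regulators of Ripk1 and Ripk3 came next. Casp8 (ENSMUSG00000026029, chromosome 1, 58795374 to 58847503), the initiator protease of death receptors, had 69.9 and 70.6 CPM in MC010, 35.04 and 34.6 in MC011, 41.8 and 42.7 in MC654, and 40.8 and 41.6 in MC659. As for Mlkl, MC010 was above and MC011 below all WT libraries. The differences from the WT mean were 0.75 for MC010 (standard error 0.04, adjusted p = 3.85e-10, edgeR) and -0.26 for MC011 (standard error 0.05, adjusted p = 0.000143), the latter short of the fold threshold. The label difference was 0.33 (standard error 0.25, adjusted p = 0.341). It became -0.28 with MC010 left out (adjusted p = 0.00165) and 0.74 with MC011 left out (adjusted p = 1.24e-06).

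Cflar (ENSMUSG00000026031, 58711508 to 58758884) lies 36489 bases from Casp8 on chromosome 1, on the same strand. It had 127.4 and 135.9 CPM in MC010, 91.0 and 90.9 in MC011, 78.8 and 81.4 in MC654, and 72.8 and 74.2 in MC659. The labels did not overlap, and MC010 was well above MC011. The label difference of 0.53 (standard error 0.14, adjusted p = 0.0202, edgeR) fell short of the fold threshold, and its adjusted p was 0.109 and 0.183 in the fits lacking MC654 or MC659. It was called, at 0.77, with MC011 left out (adjusted p = 3.32e-06) and, at 0.62, with either library of MC011 left out. Without library 1 or library 2 of MC659 its adjusted p was 0.0607 or 0.0580. Against the WT mean, MC010 was higher by 0.78 (standard error 0.04, adjusted p = 1.18e-10), which was called, and MC011 by 0.25 (standard error 0.04, adjusted p = 0.000103), which was not past the fold threshold. Cflar and Casp8, neighbours that encode a brake and its target, thus differed in MC011, where Cflar was above and Casp8 below the WT mean.

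Fadd (ENSMUSG00000031077, chromosome 7, 144577318 to 144582463), the adaptor that brings Casp8 to the receptor, varied least. Its levels were 12.6 and 11.3 CPM in MC010, 17.2 and 15.8 in MC011, 13.3 and 13.1 in MC654, and 12.7 and 13.6 in MC659. MC011 was above the rest, the WT lines overlapped, and both MC010 libraries lay below every WT library. The step from MC659 down to MC010 did not pass the test (0.13 on the log2 scale, standard error 0.09, adjusted p = 0.179, edgeR, one group per line). The label difference was 0.11 (standard error 0.14, adjusted p = 0.576, edgeR) and was -0.15 without MC011 (adjusted p = 0.163). No comparison of lines passed both thresholds, the farthest being MC010 below MC011 (-0.47, standard error 0.08, adjusted p = 0.000189). Fadd shares 239 exon bases with an antisense gene, Faddos, so without knowledge of the counting strand its reads cannot be told apart from antisense reads there.

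The inflammatory caspases are neighbours in the genome. Casp1, Casp4 and Casp12 follow each other on the same strand of chromosome 9 within 74516 bases, with 1562 bases between Casp1 and Casp4 and 8646 between Casp4 and Casp12, and they did not share one pattern: MC010 was the highest line for Casp1, and MC011 for Casp4 and Casp12. Casp1 encodes the protease that inflammasomes activate to mature inflammatory interleukins and to cut gasdermin D. Casp4, which encodes the mouse protease also known as caspase-11, binds bacterial lipopolysaccharide in the cytosol, and Casp12 encodes a protease linked to the endoplasmic reticulum. Because Casp1 differs in its pattern from its neighbours, the sequence at their annotated starts is shown, from RefSeq on GRCm38.p6, plus strand, from 250 bases before to 50 after the start. The windows are chr9:5298267-5298566 for Casp1, chr9:5308599-5308898 for the first of the starts listed for Casp4, and chr9:5345226-5345525 for Casp12. Capitals mark matches to TTCNNNGAA, the GAS element that STAT factors bind, which reads the same on both strands.
Casp1: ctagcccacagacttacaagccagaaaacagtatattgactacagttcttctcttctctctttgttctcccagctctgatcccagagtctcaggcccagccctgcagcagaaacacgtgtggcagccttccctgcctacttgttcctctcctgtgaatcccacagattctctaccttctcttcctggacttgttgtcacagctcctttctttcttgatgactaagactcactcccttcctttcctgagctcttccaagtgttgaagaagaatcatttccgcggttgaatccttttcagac
Casp4: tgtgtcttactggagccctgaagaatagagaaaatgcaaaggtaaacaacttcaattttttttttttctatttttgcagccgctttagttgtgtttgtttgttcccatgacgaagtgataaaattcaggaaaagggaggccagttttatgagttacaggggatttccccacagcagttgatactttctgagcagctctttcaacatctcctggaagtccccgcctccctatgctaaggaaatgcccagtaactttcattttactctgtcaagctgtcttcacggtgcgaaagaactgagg
Casp12: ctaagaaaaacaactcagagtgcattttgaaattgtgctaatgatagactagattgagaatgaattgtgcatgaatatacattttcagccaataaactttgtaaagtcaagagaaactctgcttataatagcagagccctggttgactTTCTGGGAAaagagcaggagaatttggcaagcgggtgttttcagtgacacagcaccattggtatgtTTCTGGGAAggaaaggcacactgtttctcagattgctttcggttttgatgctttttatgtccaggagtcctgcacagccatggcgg
The Casp12 window held 2 such matches, 102 and 36 bases before the RefSeq start, and the windows of Casp1 and Casp4 held none. The second match, at 5345440 to 5345448, lies inside the span of Casp12 given below, which begins before the RefSeq start. The core of the interferon-stimulated response element, GAAA followed after any 2 bases by GAAA again, was searched on both strands and was in none of these windows. RefSeq windows were found for 9 of the 10 genes, 11 windows in all. The GAS letters were in 2 of the 11 and in 8.30% of 32851 promoters of the same length, and the interferon element in 2 of the 11 and in 3.44% of all. The second Ripk1 window held both, with 3 bases shared between an interferon element and a GAS match, and the Cflar window held the interferon element. A match describes letters, not a bound site.

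Casp1 (ENSMUSG00000025888, 5298517 to 5307265) had 551 and 435 counts in MC010, 1 and 0 in MC011, and 0 in each of the 4 WT libraries. In CPM, this was 4.82 and 5.92 in MC010. A count of 0 allows up to 3 counts, and against the highest such floor of the WT libraries, 0.0360 CPM per library, the mean of MC010 was at least 149-fold higher. MC010 exceeded MC011 by a ratio of 921, with a 95% counting interval of 165 to 36397, which covers counting error only. Casp1 did not pass the filter on low counts by label. Without that filter its label difference had an adjusted p of 0.0710 in edgeR, and DESeq2 gave 0.00811. Whether the label comparison calls it thus depends on the tool. The exact permutation test over libraries, two-sided, gave p = 0.143. Fits that Casp1 enters only through MC010, where it is high, give no test of it, and its values by line are a description. Ptprc, the pan-leukocyte gene, had 18 and 13 counts in MC010, 0 in both libraries of MC011 and 1 or 2 in each WT library. The 5 hematopoietic markers did not move together. Against the WT mean in the fit by line (edgeR), Cd14 was higher in MC010 (1.45, adjusted p = 1.52e-10), Csf1r was lower (-2.01, adjusted p = 6.61e-05) and Cd68 was lower but short of the fold threshold (-0.51, adjusted p = 0.000436), while Ptprc and Cd79a were under the filter. Their part in the Casp1 level was not tested.

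Casp4 (ENSMUSG00000033538, 5308828 to 5336783) had 4.04 and 4.34 CPM in MC010, 7.82 and 8.20 in MC011, 0.252 and 0.329 in MC654, and 0.873 and 0.689 in MC659. No library of one label reached into the range of the other, and here MC011 was the highest line. The means were 6.10 ± 2.22 CPM (SD, n = 4 libraries of 2 lines) against 0.536 ± 0.295 CPM (SD, n = 4). This was the widest label difference of the 9 tested genes, 3.50 on the log2 scale (standard error 0.48, adjusted p = 0.000984, edgeR). The exact permutation test gave p = 0.0286, the smallest that 4 against 4 libraries allow, while 2 lines against 2 cannot go below 0.333. The call held with any line left out (adjusted p from 0.000121 to 0.0113), and was lost when the 2 libraries of each line were summed (adjusted p = 0.120), a fit in which no gene of the table was called. The WT counts were low, 21 to 77 per library, and MC654 was 1.42 below MC659 (-1.42, standard error 0.25, adjusted p = 0.000994).

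Casp12 (ENSMUSG00000025887, 5345430 to 5373032) had 15.8 and 17.7 CPM in MC010, 25.2 and 27.3 in MC011, 8.28 and 8.40 in MC654, and 15.5 and 16.8 in MC659. MC011 was highest and MC654 lowest, and MC010 and MC659 overlapped. These middle lines differed by 0.05 on the log2 scale (standard error 0.08, adjusted p = 0.628, edgeR). The label difference of 0.81 (standard error 0.30) had an adjusted p of 0.0639, and DESeq2 put it at 0.0253. It ranged from 0.40 without MC654 to 1.36 without MC659, where it was called (adjusted p = 0.0275). Without MC010 it was called as well (adjusted p = 0.0486), and so it was without library 2 of MC659 alone (0.0499). MC011 exceeded the WT mean by 1.17 (standard error 0.07, adjusted p = 5.22e-10) and MC010 by 0.53 (standard error 0.07, adjusted p = 7.06e-06), the latter short of the fold threshold. Per kilobase of exon, Casp12 was above Casp4 in every line, at 4.36 against 1.13 CPM per kilobase in MC010 and 2.17 against 0.0783 in MC654.

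**Figure D2:**
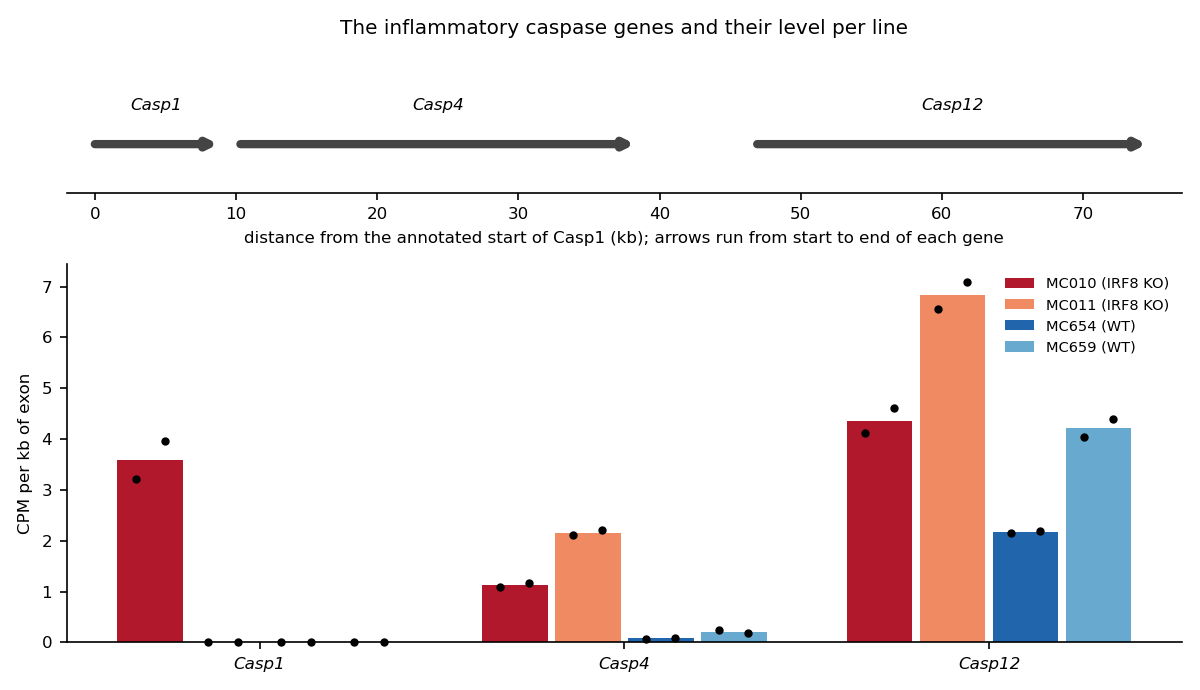
Top: extent and direction of Casp1, Casp4 and Casp12 by distance in kilobases from the start of Casp1. Bottom: level of each gene in CPM per kilobase of exon, with bars at the mean of each line and a point per library. Casp1 has a bar in MC010 only, Casp4 is low in both WT lines, and Casp12 is at a similar level in MC010 and MC659.

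Gsdmd (ENSMUSG00000022575, chromosome 15, 75862327 to 75867408), the pore former that the inflammatory caspases cut, had 43.7 and 42.9 CPM in MC010, 10.3 and 11.7 in MC011, 3.06 and 2.93 in MC654, and 4.87 and 4.06 in MC659. All libraries labelled IRF8 KO were above all WT libraries, and MC010 was far above MC011. The means were 27.2 ± 18.7 CPM (SD, n = 4 libraries of 2 lines) against 3.73 ± 0.914 CPM (SD, n = 4). The label difference was 2.86 (standard error 0.54, adjusted p = 0.00447, edgeR), with the exact permutation p again at its minimum of 0.0286. It was not called without MC654 (adjusted p = 0.0820), without MC659 (0.0557) or with limma-voom and the line as a random block (0.0688), while the log2 difference stayed between 1.54 and 3.53 over the lines left out. By line, MC010 was 3.57 above the WT mean (standard error 0.08, adjusted p = 2.43e-15) and MC011 was 1.59 above it (standard error 0.08, adjusted p = 1.73e-10).

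Libraries of the labels did not overlap for Casp4, Gsdmd and Cflar, all higher with the label IRF8 KO. That is 3 of the 9 tested genes, where 42.5% of all genes tested showed no overlap, 22.1% with the label IRF8 KO the higher and 20.5% with it the lower. For the other tested genes the exact permutation p over libraries, two-sided, was 0.0571 for Casp12, 0.171 for Ripk3, 0.429 for Ripk1, 0.429 for Casp8, 0.543 for Fadd and 0.714 for Mlkl.

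The second question was how far lines of one label differ. MC010 and MC011 differed in 7 of the 9 tested genes past both thresholds, where 31.6% of all genes tested did, 15.7% higher and 16.0% lower in MC010. Gsdmd (1.98), Ripk3 (1.36), Mlkl (1.36) and Casp8 (1.01) were higher in MC010 on the log2 scale. Casp4 (-0.94), Ripk1 (-0.78) and Casp12 (-0.65) were lower there, with adjusted p-values of at most 3.90e-05 for all 7 (edgeR, one group per line). Cflar was 0.53 higher in MC010 (standard error 0.05, adjusted p = 1.33e-07), short of the fold threshold. Among genes with a role in necroptosis, MC010 thus held more Ripk3, Mlkl and Casp8 and MC011 more Ripk1, and among inflammatory caspases MC010 held Casp1 and MC011 more Casp4 and Casp12.

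The WT lines differed in 3 of the 9 tested genes, against 4.95% of all genes tested, 1.24% higher and 3.71% lower in MC654. Ripk3 (-1.91), Casp4 (-1.42) and Casp12 (-0.96) were lower in MC654 than in MC659. Gsdmd was lower there by a log2 difference just short of the fold threshold (-0.58, standard error 0.11, adjusted p = 0.00267), and so was Mlkl by less (-0.19, standard error 0.06, adjusted p = 0.0384). Ripk1, Casp8, Cflar and Fadd differed by 0.01 to 0.12, with adjusted p-values from 0.112 to 0.965.

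Against the mean of the WT lines, MC010 had 6 of 9 genes called, all higher, with 37.1% of all genes tested called, 19.7% higher and 17.4% lower. MC011 had 5 of 9 called, all higher, with 30.7% called, 17.3% higher and 13.4% lower. Both contrasts use the same WT libraries, so they are not independent, and only their own values are set side by side. Gsdmd was 3.57 in MC010 and 1.59 in MC011, Casp4 3.13 and 4.07, and Ripk3 2.03 and 0.66, all called. Cflar (0.78 and 0.25), Casp8 (0.75 and -0.26) and Mlkl (0.78 and -0.58) were called in MC010 alone. Ripk1 (-0.07 and 0.71) and Casp12 (0.53 and 1.17) were called in MC011 alone. The differences between MC010 and MC011 given above are the test of each of these contrasts, and that of Cflar was short of the fold threshold.

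**Figure D3:**
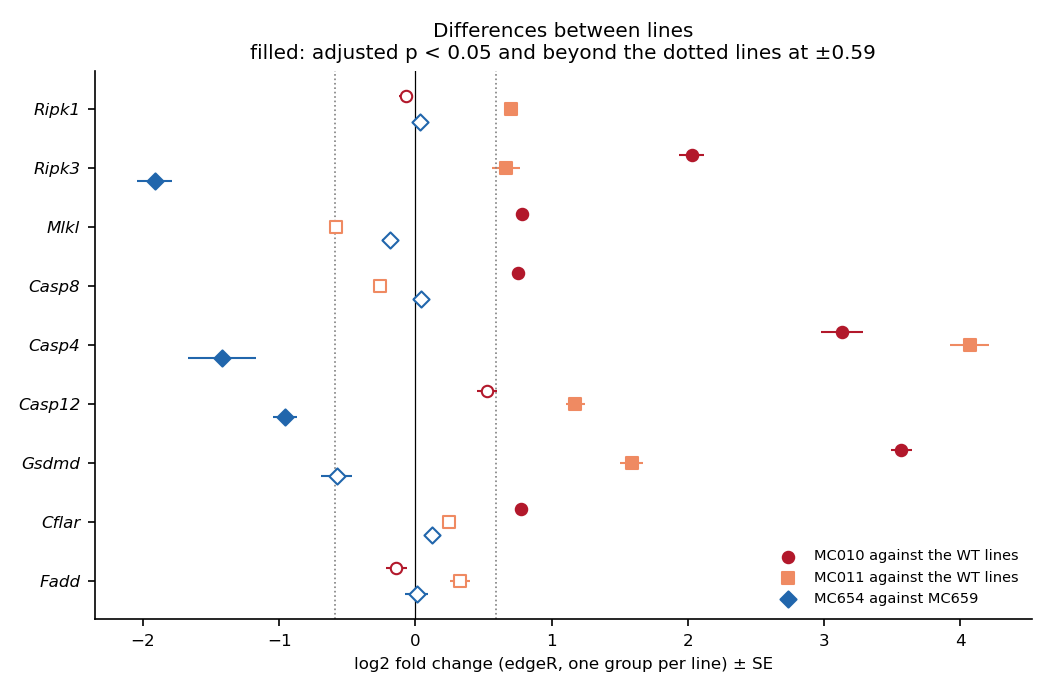
Log2 difference (horizontal axis) with its standard error for the 9 tested genes, from edgeR fitted with a group for each line: circles, MC010 against the mean of the WT lines; squares, MC011 against that mean; diamonds, MC654 against MC659. Filled symbols are past both thresholds. Mlkl and Casp8 have circles to the right and squares to the left of 0, and Ripk3, with a diamond at -1.91, differs between the WT lines about as much as MC010 does from their mean.

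The partners of the 10 genes were read from lists of the 4 neighbouring pathways. In the necroptosis and TNF receptor list, 21 of 21 genes were tested between the labels and 4 passed both thresholds, with 2 higher and 2 lower (median log2 difference 0.17). That share, 19.0%, was near the 22.5% of all genes tested. Tnfaip3 (1.30, adjusted p = 0.00560, edgeR), which encodes the ubiquitin editor A20, and Birc3 (0.86, adjusted p = 0.00251), a ligase that ubiquitinates RIPK1, were higher with that label. Zbp1 and Rnf31 were lower. Zbp1, a sensor of unusual nucleic acids that can activate Ripk3, had 0.874 and 1.10 CPM in MC010 and 0.591 and 0.494 in MC011, against 4.85 and 3.34 in MC654 and 8.34 and 10.1 in MC659. The labels did not overlap, and the log2 difference was -3.12 (standard error 0.43, adjusted p = 0.00103). For Rnf31, the catalytic subunit of the linear ubiquitin ligase, it was -0.62 (standard error 0.13, adjusted p = 0.00662).

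The inflammasome and pyroptosis list had 23 genes, of which 16 were in the table and 13 were tested. Nlrp1a, Nlrp1b, Nlrc4, Naip5, Mefv, Il1b and Gsdma were not analysed here, and Naip2, Il1a and Card9 were under the filter. In this list 5 genes, or 38.5% of those tested, passed both thresholds, 3 higher and 2 lower, with a median log2 difference of 0.26. Of the 5, Serpinb1a, Pycard and Gsdmc were near 0 in one label and passed the filter only through the other, so their counts are given as a description, and the share is not set against that of all genes. Ninj1, which ruptures the membrane of dying cells after gasdermin pores have formed, had 22.8 to 37.5 CPM in the libraries labelled IRF8 KO and 7.81 to 10.6 in those labelled WT (log2 difference 1.70, standard error 0.19, adjusted p = 0.000343, edgeR). The channel gene Panx1 was higher by 0.95 (standard error 0.14, adjusted p = 0.00120). Serpinb1a, an inhibitor of neutrophil proteases and inflammatory caspases, had 0.568 and 0.503 CPM in MC010 and 6.89 and 7.29 in MC011, against a single count in the 4 WT libraries.

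Pycard, which encodes ASC, the adaptor that links inflammasome sensors to Casp1, was low everywhere. It had 0 counts in both libraries of MC010 and 2 and 0 in those of MC011, against 15 to 22 in the WT libraries. Casp1 and Pycard counts were thus never both above the floor of 3 counts in the same library. Gsdmc had 9 and 0 counts in MC010 and 0 in MC011 against 146 to 200 in the WT libraries, and it is uncertain because near-identical copies of this gene lie beside it in the mouse.

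Of 13 genes of the apoptotic caspase list, 12 were tested and Casp14 was under the filter. Past both thresholds, 2 were higher with the label IRF8 KO, among them Casp6 (0.84, standard error 0.25, adjusted p = 0.0289, edgeR), an effector caspase, and 1 was lower, Apaf1, the scaffold of the apoptosome (-0.94, standard error 0.05, adjusted p = 7.80e-06). In the fit by line, Casp6 was 1.24 above the WT mean in MC010 and 0.28 above it in MC011, the latter short of the fold threshold. The 3 called genes were 25.0% of those tested, near the 22.5% of all genes tested, and the median log2 difference of the list was 0.13. Apaf1 had 41.2 to 43.7 CPM in the 4 libraries labelled IRF8 KO and 79.4 to 83.4 in the 4 labelled WT, with MC010 and MC011 close to each other (-0.05, standard error 0.05, adjusted p = 0.393).

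Among 8 interferon signalling genes, 6 were lower with the label IRF8 KO past both thresholds (edgeR), where 8.72% of all genes tested were, with a median log2 difference of -1.36 against 0.02 over all genes. Irf7 (-3.87, adjusted p = 0.000608), Isg15 (-2.97, 0.00494), Irf9 (-1.37, 0.00102), Stat2 (-1.36, 0.00178) and Irf1 (-0.74, 0.000568) were among them. Ifnar1, a receptor chain for type I interferon, was 0.48 higher (standard error 0.06, adjusted p = 0.000522), short of the fold threshold. Zbp1 stood with these genes, while between the labels Casp4, which interferons can also induce, was higher where they were lower. Between the WT lines the direction was shared. Casp4 (-1.42), Irf7 (-0.92) and Isg15 (-0.64) were all lower in MC654 than in MC659 (edgeR, one group per line). There 3 of the 8 interferon genes were called lower and 0 higher, where 3.71% of all genes tested were called lower. Between MC010 and MC011, Casp4 was lower in MC010 (-0.94) and Irf7 (1.42) and Isg15 (2.15) were higher. Whether these levels are linked was not tested. Over the 4 pathway lists, with 21, 13, 12 and 8 genes tested, 18 genes were called with all libraries, where 22.5% of all genes tested were. Serpinb1a, Pycard and Gsdmc, given above as a description, are among the 18. With MC659 left out, 11 list genes were called, where the share over all genes tested was 11.6%.

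**Figure D4:**
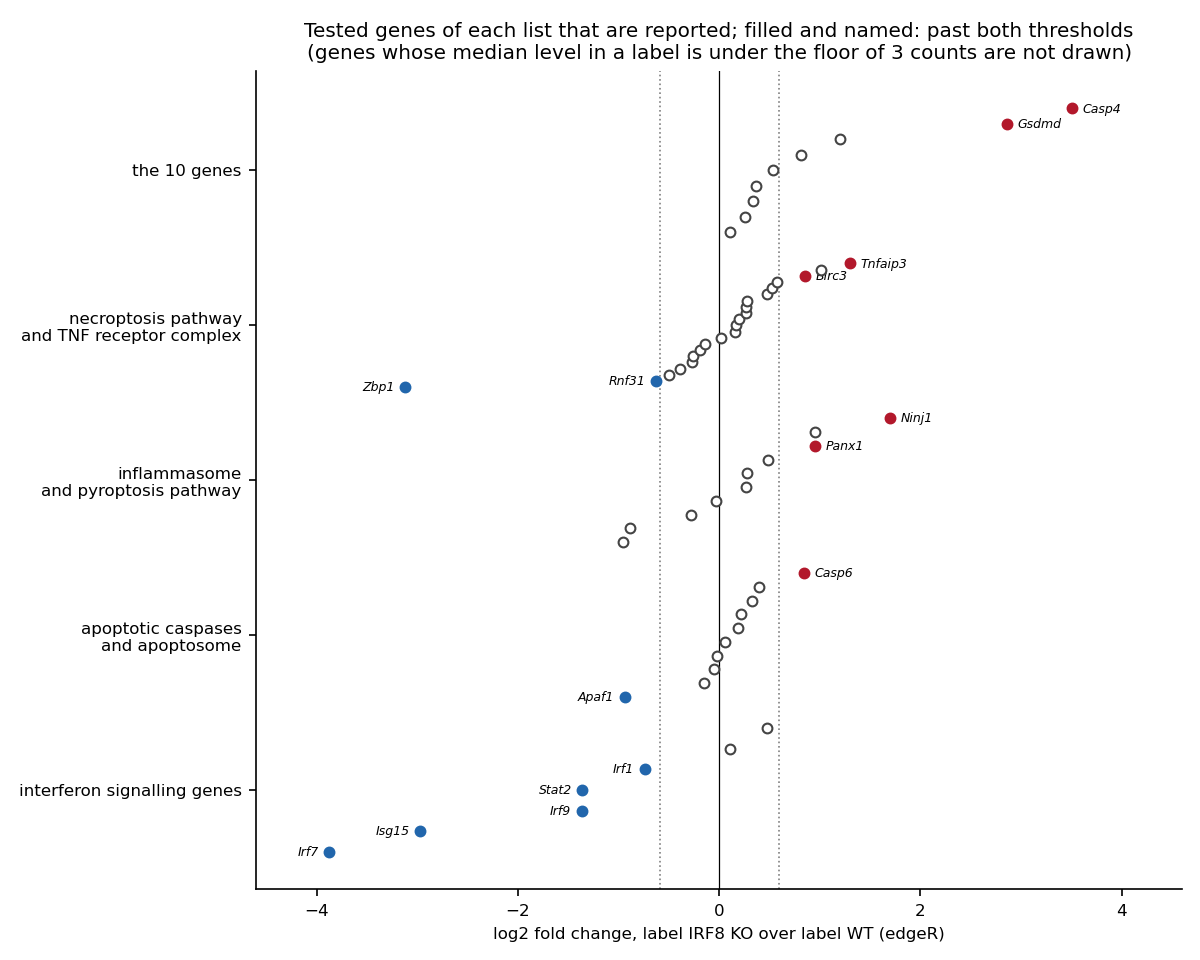
Log2 difference between the labels (horizontal axis, positive where the libraries labelled IRF8 KO are higher) for the tested genes reported from the 10 genes and the 4 pathway lists, with a point per gene. Filled, named points are past both thresholds, and Gsdmc, Pycard and Serpinb1a are left out because most libraries of a label were at or under the floor. The interferon genes lie to the left, from -0.74 to -3.87, apart from 2 open points, and Casp4 and Gsdmd lie farthest to the right.

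Markers of other cell types also varied by line. Over the epithelial markers in the table, 4 of 5, the summed level was 531 to 565 CPM in MC010, 33.3 to 34.7 in MC011, 128 to 129 in MC654 and 114 to 123 in MC659. It came almost wholly from keratin genes. Krt8 had 293 and 274 CPM in MC010 and 1.31 and 1.28 in MC011, whereas the epithelial adhesion genes Epcam and Cdh1 reached at most 1.19 and 0.394 CPM in any library, and Cdh1 was lowest in MC010, with 2 counts and 0. MC010, the line with Casp1 and the highest Ripk3, Mlkl, Casp8, Gsdmd and Cflar, was thus also the line with the highest Krt8, Krt18, Cd14 and Ptprc, though not with the highest Csf1r, Cd68, Epcam or Cdh1, and the part of these in the levels of the 10 genes was not tested.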

How the data were processed

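RNA from 8 libraries of 4 fibrosarcoma lines was analysed from the deposited table. Per the labels and the submitters' processing notes, the authors aligned reads to mm10 (GRCm38.p6) with STAR 2.7.3a, obtained a raw count per gene with HTSeq 0.11.2 and compared the labels with DESeq2. The strand option is not given in the sources used here. The deposited table also holds the signal of each library (the count times a constant per library) and the authors' own comparison, with a mean signal, a log2 fold change and its error, a score (the test statistic) and a p-value with and without adjustment, none of which was used. Each deposited gene had at least 20 counts over the libraries. No gene of the X or Y chromosome was analysed.

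Raw counts were analysed with edgeR 4.0.16 (R 4.3.3): filterByExpr by label, which left 15153 genes, TMM, robust quasi-likelihood fits by label and with one group per line, and Benjamini-Hochberg adjustment. Standard errors came from the log2 fold change and F statistic. Exact permutation tests used mean log2(CPM + 0.5) and SciPy 1.17.1. With 74063616 to 116206078 counts per library, 3 counts, the floor, equal 0.0262 to 0.0408 CPM. Floors and intervals cover counting error only. On simulated counts for 14975 genes, the label fit recovered 95 of 110 genes changed by 1 on the log2 scale and 84 of 84 changed by 2, with 4 false calls among 14781 others. The simulated lines of one label shared a mean and had only the spread found within lines. These figures therefore leave out differences between lines of one label and do not tell how often the label test errs here. Gene lengths came from an annotation whose coordinates equal those of the table.

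The 10 genes, the lists, the thresholds and the tests were chosen with earlier results of these data known. Named genes were the 10, each list gene past both thresholds between the labels (at most 6 per list, by size), list genes not tested, Irf8 and markers that moved with a gene. Ifnar1, Serpinb6a, Fn1, S100a4, Thy1, Csf1r, Cd68 and Cd79a were named outside that rule after their values were seen. Some list genes are not reported here on their own and enter only counts and medians. Alternatives were DESeq2 1.42.0, limma-voom (limma 3.58.1) with the line as a random block, sums per line, no filter, a filter by line, upper-quartile and RLE scaling, the library number as a replicate block, no fold threshold, and each library or line left out. The libraries of a line differed by more than sampling noise and were counted as separate libraries. The limma-voom fit put the correlation of the libraries of a line at 0.83.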

Additional observations from a re-analysis of the deposited data

Results flagged for a closer look

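MC010 and MC011 carry the same label, yet most of the tested genes stood at different levels in them. In the edgeR fit by line, the difference passed both thresholds for 7 of the 9 tested genes, where 31.6% of all genes tested did. The log2 values, MC010 minus MC011, were -0.78 for Ripk1, 1.36 for Ripk3, 1.36 for Mlkl and 1.01 for Casp8. They were -0.94 for Casp4, -0.65 for Casp12 and 1.98 for Gsdmd. Each line is a single tumor, so whether the effect of the label varies was not tested. Irf8 itself differed by 4.17.

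The same held for Zbp1 (0.83), Tnfaip3 (-0.84), Ninj1 (-0.60), Casp6 (0.96), Irf7 (1.42) and Isg15 (2.15) of the pathway lists. It also held for Serpinb1a (-3.71), which had 65 and 37 counts in MC010.

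A library stood apart from the other 3 of its label in 3 of 53 groups of 4 libraries. The libraries of a group come in pairs from 2 lines and are not independent, so no chance rate is set beside this. These were Pycard in library 1 of MC011 (0.0207 CPM), Gsdmc in library 1 of MC010 (0.0787 CPM) and Serpinb1a in library 2 of MC659 (0.0111 CPM). The first and last are at or under the floor of 3 counts. In all 3 groups the other libraries had 0 counts, where any count stands apart under the rule used.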

How the results depend on the processing

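Of the 10 genes, 2 were called between the labels, where 22.5% of all genes tested were. The number was 4 with DESeq2 (24.0% of all genes), 1 with limma-voom and the line as a random block (12.4%), 5 without line MC010 (29.4%), 6 without MC011 (36.3%) and 1 without MC654 (12.7%). Casp1, near 0 outside MC010, is among the 4 and the 6. With the counts of each line summed it was 0 of 9 for these genes and 0 over the pathway lists, where edgeR called no gene of the table and 3361 had an unadjusted p under 0.05. Over the pathway lists 18 genes were called, 11 without MC659 and 28 with no fold threshold. The shares over all genes tested, not over the lists, were 22.5%, 11.6% and 37.5%. With no fold threshold, 9 of the 9 tested genes were called in MC011 against the WT lines (65.3% of all genes) and 5 of 9 between the WT lines (14.5%). The label difference turned negative for Ripk1 (-0.0801) and Fadd (-0.15) without MC011, and for Mlkl (-0.60) and Casp8 (-0.28) without MC010. Irf8 counts in the WT lines were all under the floor, so its label fits give no test of it. It was past the threshold in the main fit, and not with limma-voom (6.17), sums per line (7.50), or without MC654 (8.33) or MC659 (6.87). Fadd between the WT lines, near 0, was -0.0015 without a filter and -0.0402 to 0.0597 with each library left out. Why these values moved was not tested, beyond the smaller number of lines.

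With a replicate block for library number, 2 of the 10 genes and 18 list genes were again called between the labels. The libraries share only a number: how they deviate from their line's mean correlated by -0.12 to 0.19. No filter, the filter by line, added after the data were seen, and the scalings left 2 of the 10 genes called, Casp4 and Gsdmd. Each line being a single tumor, the label and other differences between tumors cannot be told apart.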
